A study of Mus musculus with 29 samples.

Results

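Fatty acid oxidation was followed in the liver and the hippocampus of diet-induced obese mice through 35 genes chosen by symbol from the 24346 genes of the deposited expression table. They comprise 1 regulator (Ppara), 3 genes of fatty acid uptake and activation, 18 genes of the mitochondrial pathway including carnitine transfer, 9 peroxisomal genes and 4 genes whose products are known from both compartments. All 35 were found by symbol. After removal of genes with a mean below 1 FPKM (fragments per kilobase of transcript, scaled to the mapped fragments of the library) in a tissue, 35 were tested in liver and 31 in hippocampus, where Ppara, Acad10, Acaa1b and Ehhadh fell below that level.

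The mice were male C57BL/6J animals that all received high-fat diet for 10 weeks, so the chow groups are also formerly obese mice and no group was kept lean throughout. They then spent 4 weeks on 1 of 4 regimens. HFD mice kept the high-fat diet ad libitum, and HFD-IF mice kept it but fasted on alternate days. CC mice changed to control chow ad libitum, and CC-IF mice changed to chow and were intermittently fasted. Polyadenylated RNA of bulk tissue was sequenced from 4 HFD, 2 HFD-IF, 4 CC and 4 CC-IF livers and from 4 HFD, 4 HFD-IF, 4 CC and 3 CC-IF hippocampi. The design of the series states 32 samples, of which 29 libraries were analysed here. Neither the age of the mice nor the time from the last meal to tissue collection is stated in the labels. Samples of 1 group are described as biological replicates, and no label ties a liver to the hippocampus of the same mouse. Libraries are named by the index, starting at 0, in the deposited table, and values are listed in that order. Gene positions are those of the GRCm38 annotation.

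Beta oxidation shortens fatty acids by repeated cycles of dehydrogenation, hydration, a further dehydrogenation and thiolysis. Fatty acids are first bound to coenzyme A, and long chains reach the mitochondrial matrix as carnitine esters through Cpt1a, Slc25a20 and Cpt2. Peroxisomes hold a parallel set of enzymes that handles very long, branched and otherwise awkward chains and passes shortened products on. In liver the pathway is known for supplying energy and ketone bodies during fasting, and many of its genes are textbook targets of the nuclear receptor PPARα, the product of Ppara. Brain tissue is known for low rates of fatty acid oxidation.

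Estimated depth was 9.65 to 16.8 M fragments in liver libraries and 11.8 to 38.6 M in hippocampal libraries. The tissue labels were checked against marker genes. Hepatocyte markers other than Alb summed to 12681 to 18209 FPKM in livers and 8.20 to 12.6 in hippocampi, where Ass1 made up most of the sum (7.98 to 12.2), and neuronal markers summed to 1247 to 1543 FPKM in hippocampi. Alb was listed at 0 in 8 of 14 livers, and 61 of 5655 liver genes with a mean of at least 10 FPKM were listed at 0 in some library. None of the 35 genes was listed at 0 in any liver. HFD-IF liver library 1 stood apart from HFD-IF library 0, with 218 against 57.6 FPKM for summed Kupffer cell markers, 202 against 36.2 for infiltrating macrophage markers and 531 against 174 for stellate cell and fibroblast markers. Results that rest on the HFD-IF livers are therefore given with and without it. Bulk tissue cannot separate fewer cells of a type from less RNA per cell.

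The comparison of CC-IF with CC asks what intermittent fasting did on chow. In liver, 30 of the 35 genes rose and 1 fell, while 14.2% of all 11497 genes tested rose and 9.77% fell (limma on log2(FPKM + 1), Benjamini-Hochberg adjusted p under 0.05, 4 livers against 4). The median change of the 35 genes was 0.86 on the log2 scale, beside 0.02 over all genes tested. The rise covered 17 of 18 mitochondrial genes (median 0.73), 6 of 9 peroxisomal genes (median 1.17), all 4 genes of both compartments (median 0.93), 2 of 3 activation genes and Ppara. Acsl5 was the gene that fell, and Etfa, Abcd3, Abcd2 and Crot did not pass the threshold. In 29 of the 35 genes every CC-IF liver lay above every CC liver, an arrangement found for 17.4% of all genes tested.

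Ppara encodes the fatty acid sensing nuclear receptor that induces much of the pathway in fasting (chr15:85734983-85802819, plus strand). It measured 85.4, 67.9, 102 and 77.1 FPKM in the HFD livers, 111 and 73.8 in the HFD-IF livers, 45.1, 51.2, 58.8 and 94.9 in the CC livers and 108, 120.1, 117 and 136 in the CC-IF livers. Every CC-IF liver exceeded every CC and every HFD liver, and CC library 3 alone among the CC livers reached the HFD range. The change of CC-IF from CC was 0.99 (SE 0.21, limma adjusted p = 0.0044) on the log2 scale, a 1.99-fold rise of FPKM + 1.

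Activation genes moved in both directions. Acsl1 encodes the main long-chain acyl-CoA synthetase of liver, and Slc27a2 a transport protein that also activates very long chains. Acsl1 measured 440.1, 426, 475 and 400.1 FPKM in the HFD livers, 778 and 409 in the HFD-IF livers, 213, 314, 436 and 444 in the CC livers and 584, 839, 732 and 869 in the CC-IF livers. The 4 CC-IF livers were the highest of the chow and HFD livers without overlap, and the 2 HFD-IF livers were far apart from each other. Slc27a2 measured 750.2, 721, 783 and 676 FPKM in the HFD livers, 1165 and 851 in the HFD-IF livers, 493, 574, 621 and 855 in the CC livers and 1076, 1306, 1161 and 1266 in the CC-IF livers. Its CC-IF livers again lay above all CC and HFD livers. On the log2 scale CC-IF differed from CC by 1.15 (SE 0.24, limma adjusted p = 0.00439) for Acsl1 and by 0.94 (SE 0.15, limma adjusted p = 0.000989) for Slc27a2.

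Acsl5 encodes an acyl-CoA synthetase linked to triglyceride synthesis as well as to oxidation (chr19:55251938-55297720, plus strand). It measured 134, 102, 151 and 163 FPKM in the HFD livers, 66.8 and 80.6 in the HFD-IF livers, 105, 142, 129 and 101 in the CC livers and 77.9, 88.7, 74.6 and 79.3 in the CC-IF livers. Both groups of fasted livers lay wholly below both groups of livers fed ad libitum. The change of CC-IF from CC was -0.56 (SE 0.15, limma adjusted p = 0.0155). Without CC library 1 the adjusted p of this fall was 0.0529.

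The carnitine transfer steps rose together on chow with fasting. Cpt1a, the carnitine palmitoyltransferase that controls entry into liver mitochondria, measured 184, 169.9, 191 and 202 FPKM in the HFD livers, 221 and 364 in the HFD-IF livers, 92.4, 118, 135 and 174 in the CC livers and 292, 299, 223 and 252 in the CC-IF livers. CC-IF livers lay above all CC and all HFD livers. Slc25a20, the carnitine-acylcarnitine translocase, measured 76.7, 72.2, 74.3 and 72.7 FPKM in the HFD livers, 108 and 90.9 in the HFD-IF livers, 38.98, 46.05, 57.4 and 66.9 in the CC livers and 104, 123, 105 and 121 in the CC-IF livers. The CC livers were lowest, the HFD livers next, and all fasted livers lay above both, with HFD-IF library 0 inside the CC-IF range. Cpt2, which returns the acyl group to coenzyme A inside the mitochondrion, measured 75.2, 81.9, 77.6 and 71.2 FPKM in the HFD livers, 93.5 and 84.4 in the HFD-IF livers, 51.5, 60.3, 70.96 and 83.7 in the CC livers and 79.8, 95.8, 84.8 and 90.2 in the CC-IF livers. CC library 3 overlapped the CC-IF range for Cpt2. The log2 change was 1.06 (SE 0.19, limma adjusted p = 0.00155) for Cpt1a, 1.12 (SE 0.14, limma adjusted p = 0.000162) for Slc25a20 and 0.41 (SE 0.12, limma adjusted p = 0.0299) for Cpt2. The Cpt2 call was lost without CC library 0 (limma adjusted p = 0.0850), CC library 1 (0.0854), CC-IF library 1 (0.0811) or CC-IF library 3 (0.0684). It was also lost when the compared groups alone were fitted (limma adjusted p = 0.0585).

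**Figure D1:**
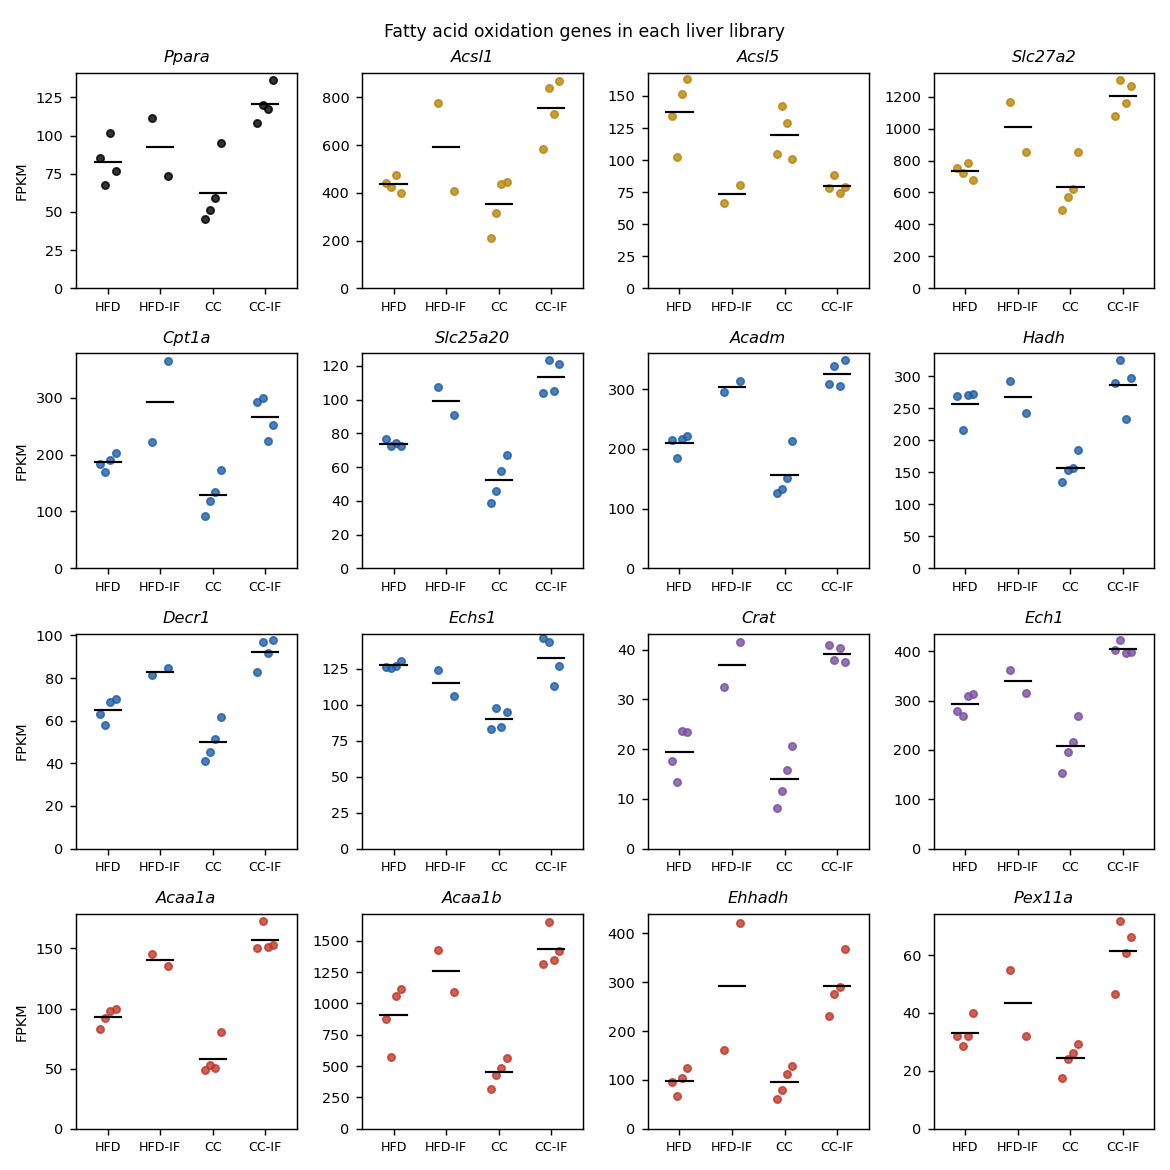
FPKM (vertical axis, linear and starting at 0) of 16 fatty acid oxidation genes in each liver library, by regimen (horizontal axis). Points are single livers, bars are group means and colours mark the class of the gene; in 15 of the 16 panels the CC-IF livers lie above all CC livers, and in the panel of Acsl5 they lie below.

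Among the acyl-CoA dehydrogenases, which open each mitochondrial cycle, Acadm for medium chains had the smallest p. Acadm measured 215, 185, 217 and 222 FPKM in the HFD livers, 294 and 313 in the HFD-IF livers, 125, 133, 152 and 213 in the CC livers and 308, 338, 306 and 348 in the CC-IF livers. CC-IF livers were above all CC and HFD livers, and the CC livers spread widely up to the HFD range. Acads, for short chains, measured 79.3, 81.00, 86.1 and 83.8 FPKM in the HFD livers, 82.4 and 85.3 in the HFD-IF livers, 61.7, 73.7, 62.7 and 68.7 in the CC livers and 94.1, 99.8, 93.5 and 84.4 in the CC-IF livers. For Acads the CC livers were below every other liver. Acad10, which acts on hydroxylated fatty acids, measured 12.97, 10.7, 11.9 and 12.4 FPKM in the HFD livers, 14.96 and 11.3 in the HFD-IF livers, 6.99, 7.68, 6.005 and 8.21 in the CC livers and 14.6, 17.2, 12.2 and 14.7 in the CC-IF livers. Its CC livers were also the lowest of all livers. The log2 change of CC-IF from CC was 1.09 (SE 0.14, limma adjusted p = 0.000201) for Acadm, 0.47 (SE 0.08, limma adjusted p = 0.000824) for Acads and 0.93 (SE 0.12, limma adjusted p = 0.00021) for Acad10. Acadl and Acadvl, for long and very long chains, rose by 0.77 and 0.45.

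Hadha and Hadhb encode the subunits of the mitochondrial trifunctional protein, which carries out the later steps of the cycle on long chains. They lie head to head on chromosome 5 (Hadha chr5:30118304-30155162, minus strand; Hadhb chr5:30155248-30184593, plus strand), with 85 bases between the gene models. The RefSeq start site of Hadha lies inside the Hadha gene model, so this gap depends on the annotation. The bases between the models, shown because they lie between this pair, are given 5′ to 3′ on the plus strand. They are read from the RefSeq promoter of Hadhb (chr5:30155163-30155247, GRCm38.p6) and are 69.4% G or C with 9 CG steps.
Hadha to Hadhb: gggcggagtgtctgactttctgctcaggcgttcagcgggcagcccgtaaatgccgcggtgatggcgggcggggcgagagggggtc

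Hadha measured 114, 121, 126 and 126 FPKM in the HFD livers, 166 and 158 in the HFD-IF livers, 86.2, 107, 114 and 133 in the CC livers and 165, 180.3, 179 and 176 in the CC-IF livers. Hadhb measured 93.9, 93.9, 107 and 105 FPKM in the HFD livers, 154 and 163 in the HFD-IF livers, 69.6, 84.4, 88.4 and 116 in the CC livers and 150.3, 177, 156 and 157 in the CC-IF livers. For both genes all 6 fasted livers lay above all 8 livers fed ad libitum. CC-IF differed from CC by 0.68 (SE 0.11, limma adjusted p = 0.000772) for Hadha and 0.85 (SE 0.13, limma adjusted p = 0.00051) for Hadhb. Of the 125-nt stretches of Hadhb transcripts, 13.3% also occur in the annotated gene Gm13910, so part of its reads could be divided between them.

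Hadh, the hydroxyacyl-CoA dehydrogenase for short and medium chains, measured 269, 216, 271 and 272 FPKM in the HFD livers, 292 and 242 in the HFD-IF livers, 135, 153, 157 and 185 in the CC livers and 289.6, 326, 234 and 298 in the CC-IF livers. Its CC livers were below all other livers. Echs1, the short-chain enoyl-CoA hydratase, measured 127, 126, 127 and 130.3 FPKM in the HFD livers, 124 and 106 in the HFD-IF livers, 83.2, 98.04, 84.7 and 95.3 in the CC livers and 146, 144, 113 and 127 in the CC-IF livers. The HFD livers of Echs1 were tightly grouped and the CC livers lay below every other library. Decr1, the dienoyl-CoA reductase needed for unsaturated chains, measured 62.9, 58.1, 68.9 and 70.1 FPKM in the HFD livers, 81.5 and 84.5 in the HFD-IF livers, 41.3, 45.2, 51.5 and 61.6 in the CC livers and 82.8, 96.8, 91.6 and 98.05 in the CC-IF livers. All fasted livers exceeded all livers fed ad libitum for Decr1. On the log2 scale CC-IF differed from CC by 0.86 (SE 0.13, limma adjusted p = 0.000516) for Hadh, 0.54 (SE 0.09, limma adjusted p = 0.00137) for Echs1 and 0.89 (SE 0.11, limma adjusted p = 0.000201) for Decr1.

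The electron transfer flavoprotein and its oxidoreductase carry electrons from the dehydrogenases to the respiratory chain. Etfb and Etfdh rose by 0.47 and 0.51. Etfa measured 169, 173, 186 and 191 FPKM in the CC livers and 172, 219.7, 185 and 199 in the CC-IF livers. These ranges overlapped, and the change of 0.11 (SE 0.10, limma adjusted p = 0.461) did not pass the threshold. Etfb shares 32.8% of its 125-nt stretches with the annotated gene Gm45233, so its reads may also be divided.

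Peroxisomal genes held the largest 2 changes among the 35, those of Acaa1b and Ehhadh. Acaa1a and Acaa1b encode near copies of a peroxisomal thiolase, an enzyme of the last step of the cycle there, and Acaa1b is the more liver-specific copy. Acaa1b (chr9:119148023-119157093, minus strand) measured 874, 569.7, 1059 and 1115 FPKM in the HFD livers, 1428 and 1090 in the HFD-IF livers, 318, 427, 487 and 568 in the CC livers and 1317, 1649, 1345 and 1420 in the CC-IF livers. The CC livers were below all others, though the highest CC liver nearly met the lowest HFD liver, and the CC-IF livers were above all CC and HFD livers. Acaa1a (chr9:119339676-119350299, plus strand) measured 83.04, 92.1, 97.8 and 99.2 FPKM in the HFD livers, 145 and 135 in the HFD-IF livers, 49.02, 52.6, 50.5 and 80.4 in the CC livers and 150.4, 173, 151 and 153 in the CC-IF livers. Its 3 ranges of CC, HFD and fasted livers did not overlap. The log2 change of CC-IF from CC was 1.70 (SE 0.22, limma adjusted p = 0.000201) for Acaa1b, a 3.24-fold rise, and 1.45 (SE 0.13, limma adjusted p = 2.71e-05) for Acaa1a, a 2.72-fold rise. The copies share 125-nt stretches (14.8% of those of Acaa1b and 5.29% of those of Acaa1a), so a part of their reads cannot be told apart with certainty.

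Ehhadh, the peroxisomal bifunctional enzyme of the hydration and second dehydrogenation steps (chr16:21761287-21787807, minus strand), measured 95.2, 66.99, 104 and 125 FPKM in the HFD livers, 162 and 422 in the HFD-IF livers, 59.9, 80.3, 112 and 128 in the CC livers and 232, 277, 290.5 and 369 in the CC-IF livers. CC and HFD livers shared one range, all CC-IF livers lay above it, and HFD-IF library 1 was the highest liver of the study. Pex11a, a membrane protein that promotes peroxisome division (chr7:79735957-79743131, minus strand), measured 32.2, 28.6, 31.97 and 39.99 FPKM in the HFD livers, 54.95 and 32.01 in the HFD-IF livers, 17.6, 24.2, 26.1 and 29.3 in the CC livers and 46.5, 71.6, 60.9 and 66.2 in the CC-IF livers. The CC-IF livers were the highest except that HFD-IF library 0 lay within their range. CC-IF differed from CC by 1.65 (SE 0.30, limma adjusted p = 0.00205) for Ehhadh and 1.30 (SE 0.19, limma adjusted p = 0.000488) for Pex11a. Decr2, the peroxisomal dienoyl-CoA reductase, rose by 1.00, and Hsd17b4, the second bifunctional enzyme, by 0.57.

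The membrane transporters of the peroxisome and the exit enzyme Crot did not pass the threshold. Abcd2, a transporter of very long chain acyl-CoA, measured 9.29, 1.66, 7.96 and 14.02 FPKM in the HFD livers, 14.4 and 13.7 in the HFD-IF livers, 1.37, 5.88, 6.28 and 9.78 in the CC livers and 22.9, 14.1, 6.82 and 10.7 in the CC-IF livers. The CC-IF livers overlapped both the CC and the HFD livers, and the difference of CC-IF from CC was 1.17 (SE 0.54, limma adjusted p = 0.136). Abcd3, the abundant peroxisomal transporter, differed by 0.23 (SE 0.14, limma adjusted p = 0.237). Crot, which makes carnitine esters for export from peroxisomes and was singled out after its values were seen, measured 258, 284, 235 and 216 FPKM in the HFD livers, 352 and 422 in the HFD-IF livers, 158, 227, 270.5 and 376 in the CC livers and 225, 235, 192 and 204 in the CC-IF livers. The CC livers of Crot spread over 158 to 376 FPKM and enclosed the CC-IF livers. The change of -0.20 (SE 0.20, limma adjusted p = 0.504) did not pass the threshold.

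Genes of both compartments rose in all 4 cases. Crat, which exchanges short acyl groups between coenzyme A and carnitine (chr2:30400471-30415813, minus strand), measured 17.5, 13.3, 23.6 and 23.5 FPKM in the HFD livers, 32.4 and 41.6 in the HFD-IF livers, 8.096, 11.6, 15.8 and 20.6 in the CC livers and 40.96, 37.9, 40.4 and 37.6 in the CC-IF livers. All fasted livers lay above all livers fed ad libitum. Ech1, a dienoyl-CoA isomerase (chr7:28825217-28832247, plus strand), measured 280, 269, 308 and 313 FPKM in the HFD livers, 363 and 316 in the HFD-IF livers, 154, 196, 216 and 269 in the CC livers and 403, 423, 397 and 398 in the CC-IF livers. The CC-IF livers of Ech1 were narrowly grouped and above every other liver. CC-IF differed from CC by 1.49 (SE 0.23, limma adjusted p = 0.000762) for Crat and 0.98 (SE 0.13, limma adjusted p = 0.000319) for Ech1. Eci2, an enoyl-CoA isomerase, and Acad11, a dehydrogenase of hydroxylated chains, rose by 0.87 and 0.62.

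The peroxisomal median change on chow with fasting exceeded the mitochondrial median by 0.45 on the log2 scale, and this difference between classes was not tested. It ranged from 0.26 without CC-IF library 0 to 0.59 without CC-IF library 2. Peroxisomal genes also varied more among themselves, from -0.20 for Crot to 1.70 for Acaa1b, against 0.11 for Etfa to 1.12 for Slc25a20 among mitochondrial genes. The count of called genes held between 29 and 31 when any 1 of the 8 livers was left out, and 29 of the 31 called genes were called in each of those fits, Acsl5 and Cpt2 being the exceptions. When HFD-IF library 1 did not enter the estimate of spread, 31 were called. How many of all genes were called in these fits is not given here.

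Markers of other liver cells moved with this comparison. Kupffer cell markers were lower in CC-IF for 6 of 6 genes, of which 1 passed the test, and summed to 48.0 to 70.9 FPKM in CC-IF against 65.4 to 120 in CC. Liver endothelial markers were lower for 5 of 6 genes, of which 1 passed, with sums of 82.4 to 105 against 110 to 124 that did not overlap. Hepatocyte markers without Alb summed to 17241 to 18209 FPKM in CC-IF and 12681 to 16688 in CC, also without overlap. Cholangiocyte markers were lower for 2 of 2 genes tested, neither past the threshold, with sums of 6.21 to 8.54 against 8.73 to 14.0 that did not overlap. Stellate cell and fibroblast markers were higher for 6 of 9 genes, none past the threshold (198 to 259 against 171 to 210), and infiltrating macrophage markers summed to 38.9 to 78.4 against 66.6 to 83.0. Their part in the rise of the oxidation genes was not tested.

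**Figure D2:**
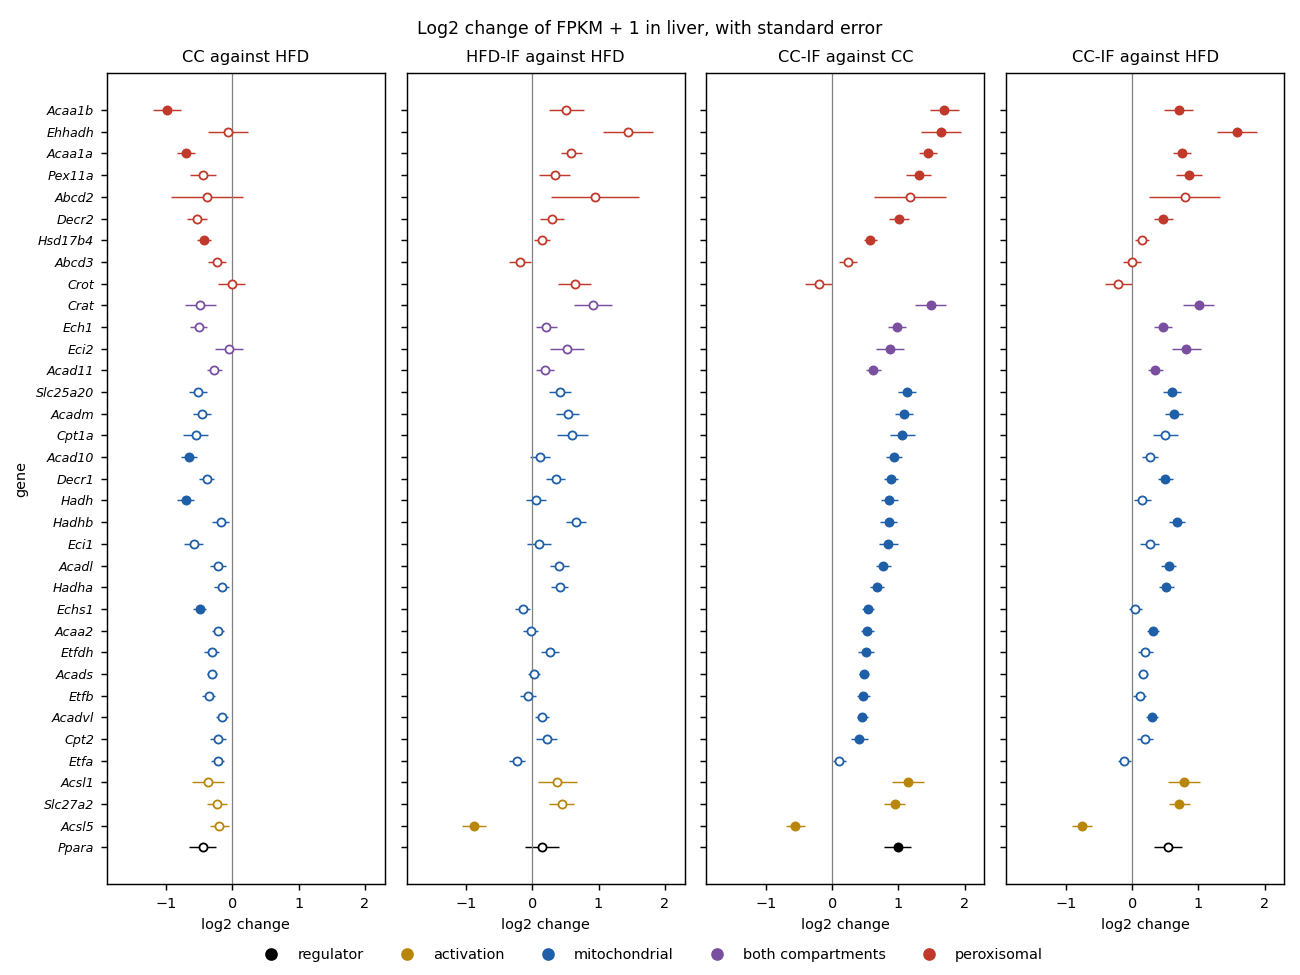
Log2 change of FPKM + 1 with its standard error (horizontal axis) for the 35 genes (vertical axis, grouped by class) in 4 liver comparisons. Filled points passed an adjusted p of 0.05 and open points did not; 31 genes are filled for CC-IF against CC, 20 for CC-IF against HFD, 6 for CC against HFD and 1 for HFD-IF against HFD.

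The comparison of CC with HFD asks what 4 weeks of chow did without fasting. The mean of log2(FPKM + 1) was lower in CC livers for all 35 genes, although the mean FPKM of Crot and Eci2 was slightly higher there. The median change was -0.37 beside -0.02 over all genes, and 6 fell past the threshold, against 1.97% of all genes tested that fell, 0.339% that rose and 2.3% called in either direction. The 6 were the mitochondrial genes Hadh, Acad10 and Echs1 and the peroxisomal genes Acaa1a, Acaa1b and Hsd17b4. Hadh changed by -0.71 (SE 0.13, limma adjusted p = 0.0181) and Acad10 by -0.66 (SE 0.12, limma adjusted p = 0.0181), the smallest p-values among the 35. Acaa1b changed by -0.99 (SE 0.22, limma adjusted p = 0.0332), a fold of 0.503, and Acaa1a by -0.70 (SE 0.13, limma adjusted p = 0.0212). Acaa1b lost its call with no filter (limma adjusted p = 0.0547) and with the compared groups alone (0.0532). Echs1 changed by -0.50 (SE 0.09, limma adjusted p = 0.0205) and Hsd17b4, named because it completes the 6, by -0.43 (SE 0.10, limma adjusted p = 0.0441). Every CC liver lay below every HFD liver for 13 of the 35 genes, an arrangement found for 9.5% of all genes tested, and none lay wholly above, an arrangement found for 4.6%.

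Class medians of the diet switch were -0.34 for mitochondrial and -0.43 for peroxisomal genes. Cpt1a differed by -0.56 (SE 0.19, limma adjusted p = 0.129), Acadm by -0.45 (SE 0.14, limma adjusted p = 0.101) and Slc25a20 by -0.52 (SE 0.14, limma adjusted p = 0.0686), which did not pass. The peroxisomal genes Ehhadh and Crot had almost the same mean in both groups, with -0.06 and -0.01. Calls changed when single livers were left out, while estimates moved less. Hadh was -0.64 without CC library 0 and -0.68 without HFD library 0, and was called in neither fit. The share of all genes called in those fits is not given here, so the counts are not results about the 35 genes alone. No gene was called without CC library 0, HFD library 0 or HFD library 3, 1 without CC library 2 or HFD library 2, 3 without CC library 1, 5 without HFD library 1 and 11 without CC library 3. The median of the 35 genes stayed between -0.27 and -0.47 in those fits, and 8 genes were called when HFD-IF library 1 did not enter the estimate of spread. Adipocyte markers summed to 5.29 to 70.9 FPKM in HFD livers and 0.0796 to 0.205 in CC livers, Cfd being the single one above the filter. Of the other adipocyte markers, Adipoq, Retn and Lep were listed at 0 in all 14 livers and Plin1 in 13 of 14. The sums therefore do not measure adipocyte content. Hepatocyte markers without Alb summed to 16057 to 16911 FPKM in HFD and 12681 to 16688 in CC livers. Infiltrating macrophage markers were higher in CC for 4 of 4 genes, none past the threshold, with sums of 66.6 to 83.0 against 39.2 to 55.8 that did not overlap. Stellate cell and fibroblast markers (9 of 9 genes) and endothelial markers (6 of 6) were also higher without passing, with sums of 171 to 210 against 146 to 203 and of 110 to 124 against 94.5 to 113. The part of these markers was not tested.

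Within the CC group the genes shifted together from liver to liver. CC library 0 was the lowest of the 4 for 32 of the 35 genes and CC library 3 the highest for 29. The median coefficient of variation of the 35 genes was 20.2% in CC livers, against 12% over all genes there. In HFD, CC-IF and HFD-IF livers it was 7.40%, 8.79% and 12.9%, below the 12.4%, 13.1% and 15.6% over all genes. After the group means were removed, the genes correlated across the 14 livers with a median Pearson's r of 0.55 between pairs of mitochondrial genes, 0.48 between peroxisomal pairs and 0.58 between the classes. Ech1, Slc25a20 and Hadhb followed the mean of the other genes most closely (r = 0.96, 0.91 and 0.91 over 14 libraries), while Acsl5 had the lowest value (0.20). These values are descriptions, since the points share library depth and tissue handling. Neither the order of the CC livers nor the correlations were computed over all genes. A shift of whole libraries was therefore not set apart from a shift of the 35 genes.

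**Figure D3:**
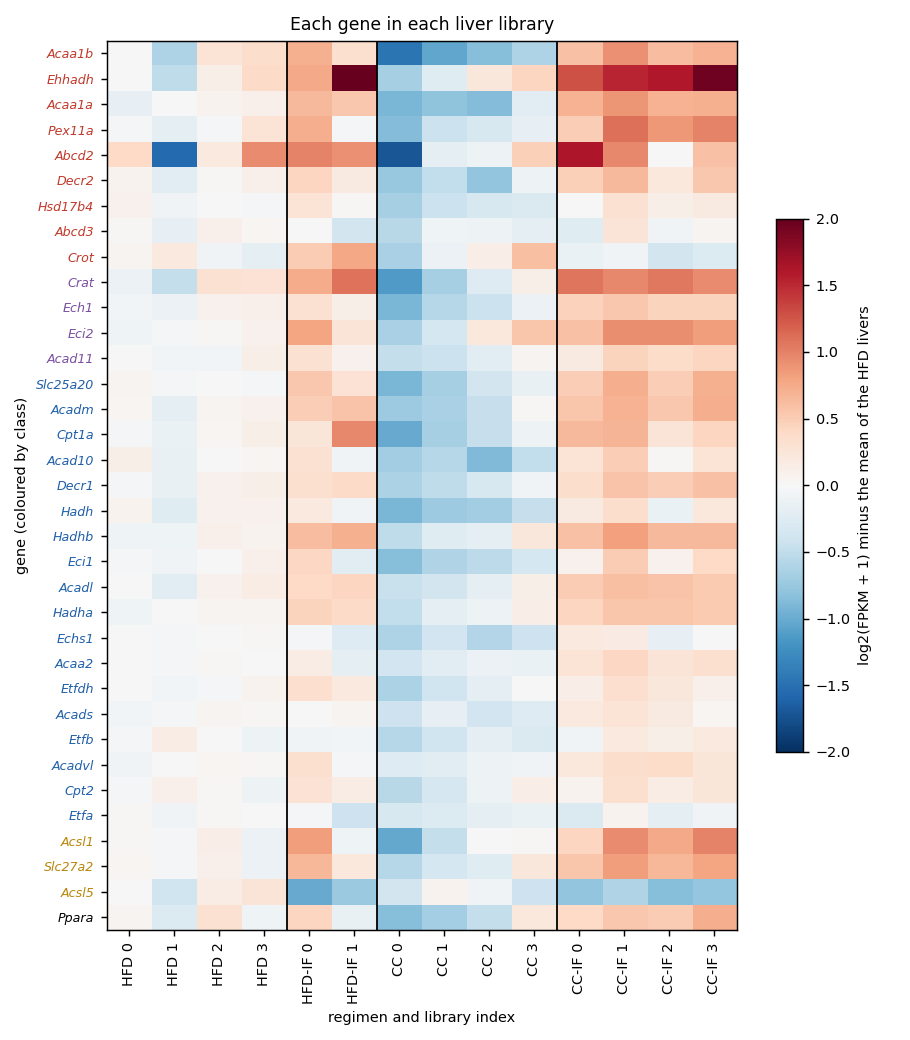
Heat map of the 35 genes (rows, labels coloured by class) in the 14 livers (columns, regimen and library index), coloured by log2(FPKM + 1) minus the mean of the HFD livers. CC library 0 is the bluest column, with the lowest CC value for 32 genes, and the CC-IF columns are red for most genes but blue for Acsl5.

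Fasting on high-fat diet was compared in 2 HFD-IF and 4 HFD livers. The median of the 35 genes was 0.30 beside -0.01 over all genes, and 29 were higher, but none rose past the threshold and Acsl5 alone fell, against 0.357% of all genes that rose, 0.965% that fell and 1.32% called in either direction. Both HFD-IF livers were above all HFD livers for 17 genes and below for 2 (Acsl5 and Echs1), beside 9.4% and 12.8% of all genes tested. An unadjusted p under 0.05 was found for 13 of the 35 genes and for 17.8% of all genes tested. Acsl5 changed by -0.88 (SE 0.18, limma adjusted p = 0.0339), and Hadhb, with the next smallest p, by 0.66 (SE 0.15, limma adjusted p = 0.056). Ehhadh differed by 1.45 (SE 0.37, limma adjusted p = 0.0787) and Crat by 0.91 (SE 0.29, limma adjusted p = 0.129).

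Cpt1a and Acaa1a differed by 0.60 (SE 0.23, limma adjusted p = 0.198) and 0.59 (SE 0.16, limma adjusted p = 0.0997) in the same comparison. The class medians were 0.18 for mitochondrial and 0.51 for peroxisomal genes. They depended on single livers: without HFD-IF library 0 they were 0.10 and 0.32, without HFD-IF library 1 they were 0.31 and 0.64, and the peroxisomal median was 0.30 without HFD library 1. The median of the 35 genes was 0.14 without HFD-IF library 0 and 0.39 without HFD-IF library 1. Without HFD-IF library 0, Hadhb differed by 0.71 and Acsl5 by -0.74. Without HFD-IF library 1, Acsl5 differed by -1.01. No gene was called without HFD library 0, HFD library 2 or HFD library 3, where the limma adjusted p of Acsl5 was 0.0705, 0.0813 and 0.0695. The share of all genes called in those fits is not given here. Stellate cell and fibroblast markers were higher in HFD-IF for 8 of 9 genes, none past the threshold, and summed to 174 and 531 FPKM against 146 to 203 in HFD. Kupffer cell markers summed to 57.6 and 218 against 58.7 to 102 and infiltrating macrophage markers to 36.2 and 202 against 39.2 to 55.8. Liver endothelial markers were lower for 5 of 6 genes, none past the threshold, with sums of 86.4 and 89.0 against 94.5 to 113 that did not overlap. Their part was not tested.

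The dependence of the fasting change on diet was tested as an interaction, the change on chow minus the change on high-fat diet. It was positive for 34 of the 35 genes (median 0.50, beside 0.04 over all genes), and 1 gene passed, against 1% of all genes tested in that direction and 1.11% in either. That gene was Echs1, with 0.69 (SE 0.15, limma adjusted p = 0.0471), from a change of 0.54 on chow and -0.15 on high-fat diet. An unadjusted p under 0.05 was found for 21 of the 35 genes and for 18.3% of all genes tested. Acad10 (0.81 (SE 0.19, limma adjusted p = 0.0588)) and Acaa1a (0.85 (SE 0.21, limma adjusted p = 0.0708)) came next. Crot alone was negative, with -0.84 (SE 0.32, limma adjusted p = 0.192).

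Calls of the interaction moved with single livers, and the share of all genes called in the same fits is not given here. There were 12 without HFD-IF library 0, and 3 each without CC library 3 and without CC-IF library 2, Echs1 not being among them without CC library 3 (limma adjusted p = 0.0509). There was 1 without HFD library 1, although the call of Echs1 itself was lost there (limma adjusted p = 0.0581), and 0 without HFD-IF library 1 or without any of HFD libraries 0, 2 and 3, CC libraries 0, 1 and 2, and CC-IF libraries 0, 1 and 3. The interaction was not called for Echs1 in any of those last fits (limma adjusted p from 0.0730 to 0.193).

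Livers of both fasted groups were compared directly. In CC-IF against HFD-IF none of the 35 genes passed the threshold (limma, 3 at an unadjusted p under 0.05, beside 18.2% of all genes), against 0.391% of all genes that rose and 0.2% that fell, and the median difference was 0.15. It was 0.06 without HFD-IF library 1 and 0.23 without HFD-IF library 0. All CC-IF livers lay above both HFD-IF livers for Acaa1a, Acaa2, Acadl and Ech1, beside 12.6% of all genes tested, and below them for Crot, beside 8.61%. For Hadhb the difference was 0.01 (SE 0.15), for Acadm 0.10 (SE 0.17) and for Cpt1a -0.10 (SE 0.23). Crot was the farthest below 0, with -0.85 (SE 0.25, limma adjusted p = 0.117). None of the 35 genes was called when any 1 CC-IF liver was left out, and the share of all genes called in those fits is not given here. With 2 HFD-IF livers, differences within these intervals were not detectable, and a p above the threshold does not show that the groups were alike.

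Both changes together were compared in CC-IF and HFD livers, groups that also enter the comparisons above. Here 19 genes rose and 1, Acsl5, fell, against 12.4% and 11.3% of all genes tested, and the median was 0.47 beside 0.0045 over all genes. Rises were called for 8 of 18 mitochondrial genes (median 0.28), 5 of 9 peroxisomal genes (median 0.70), all 4 genes of both compartments (median 0.64) and 2 of 3 activation genes. Ehhadh differed most, with 1.58 (SE 0.30, limma adjusted p = 0.0032), and Crat followed with 1.00 (SE 0.23, limma adjusted p = 0.00881). Pex11a rose by 0.86 (SE 0.19, limma adjusted p = 0.0071), Acaa1a by 0.75 (SE 0.13, limma adjusted p = 0.00215) and Hadhb by 0.68 (SE 0.13, limma adjusted p = 0.00268). Acsl5 changed by -0.76 (SE 0.15, limma adjusted p = 0.0035).

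Of the 6 genes called lower in CC than in HFD, 2 were called above HFD in CC-IF: Acaa1a, as given, and Acaa1b, by 0.70 (SE 0.22, limma adjusted p = 0.0322). The other 4 did not pass, with 0.15 (SE 0.13) for Hadh, 0.05 (SE 0.09) for Echs1, 0.27 (SE 0.12) for Acad10 and 0.15 (SE 0.10) for Hsd17b4. Ppara, at 0.54 (SE 0.21, limma adjusted p = 0.0755), and Cpt1a, at 0.50 (SE 0.19, limma adjusted p = 0.0677), did not pass, although every CC-IF liver lay above every HFD liver for both. That arrangement held for 22 genes, beside 14.9% of all genes tested. The number called was 13 without CC-IF library 1, HFD library 0 or HFD library 1, and 13 of the 20 genes were called without any 1 liver. Acaa1b lost its call without HFD library 1 (limma adjusted p = 0.0782), HFD library 0 (0.0661) or CC-IF libraries 1, 2 or 3 (0.0791, 0.0553 and 0.0638). Acsl1 lost its call without any of these 5 libraries (0.0752, 0.0627 and 0.0843 for CC-IF libraries 1, 2 and 3, 0.0646 and 0.0656 for HFD libraries 0 and 1), and without HFD libraries 2 and 3 (0.0528 and 0.0711). Ech1 lost its call without CC-IF library 1 (0.0542), HFD library 0 (0.0597) or HFD library 1 (0.0613), and the peroxisomal median was 0.40 without HFD library 1. With no filter, Acaa1b and Acsl1 were not called either (limma adjusted p = 0.0522 and 0.0553).

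Summed markers of liver cells were compared for CC-IF and HFD livers as well. Hepatocyte markers without Alb summed to 17241 to 18209 FPKM in CC-IF and 16057 to 16911 in HFD, without overlap. Adipocyte markers summed to at most 0.521 in CC-IF against 5.29 to 70.9 in HFD, and Cfd, the single one above the filter, fell. Adipoq, Retn and Lep were listed at 0 in all of these livers. Kupffer cell markers were lower for 6 of 6 genes, none past the threshold (48.0 to 70.9 against 58.7 to 102), and endothelial markers for 4 of 6, of which 1 passed (82.4 to 105 against 94.5 to 113). Stellate cell and fibroblast markers were higher for 8 of 9 genes, none past the threshold (198 to 259 against 146 to 203). Their part in the differences of the oxidation genes was not tested.

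Other genes of the pathway were counted from lists chosen for their roles. Of 32 further oxidation genes tested in liver, 8 rose and 2 fell in CC-IF against CC (median 0.31), beside the 14.2% and 9.77% of all genes given above. Slc27a1, a fatty acid transport protein, rose by 2.14 (SE 0.20, limma adjusted p = 3.16e-05), Nudt19, a peroxisomal coenzyme A hydrolase, by 0.64 (SE 0.10, limma adjusted p = 0.000554), and Mlycd, which removes the inhibitor malonyl-CoA, by 0.58 (SE 0.10, limma adjusted p = 0.00122). Acacb, which makes malonyl-CoA at the mitochondrion, fell (-2.32 (SE 0.36, limma adjusted p = 0.000664)). These are the 4 of the list with the smallest p, and 2 of them act on malonyl-CoA, the inhibitor of Cpt1a. In CC against HFD 5 of the 32 fell and none rose, beside 1.97% and 0.339% of all genes.

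Peroxisome assembly and membrane genes rose in 8 of 18 cases and fell in none in CC-IF against CC (median 0.22, beside the same background), led by the membrane channel gene Pxmp2 (0.71 (SE 0.10, limma adjusted p = 0.000431)) and the import factor gene Pex19 (0.64 (SE 0.11, limma adjusted p = 0.001)). In CC against HFD 4 of these 18 genes fell, beside 1.97% of all genes, Pxmp2 (-0.64 (SE 0.10, limma adjusted p = 0.012)) among them. Of 13 regulators, 4 rose on chow with fasting, beside 14.2% of all genes: Esrra, an orphan nuclear receptor of mitochondrial genes (1.09 (SE 0.08, limma adjusted p = 7.57e-06)), Sirt3 (0.81 (SE 0.14, limma adjusted p = 0.00114)) and Sirt1 (0.46 (SE 0.11, limma adjusted p = 0.00756)), which are NAD-dependent deacylases, and Rxra, the partner receptor of PPARα (0.45 (SE 0.12, limma adjusted p = 0.0177)). Esrra also rose in HFD-IF against HFD, by 0.43 (SE 0.09, limma adjusted p = 0.042), beside 0.357% of all genes that rose there. It was not called without HFD-IF library 0 (0.39, limma adjusted p = 0.0515) or without HFD-IF library 1 (0.48, limma adjusted p = 0.165). PPARα targets outside oxidation rose in 13 of 19 cases and fell in 1 (median 1.16), beside 14.2% and 9.77% of all genes, with Mgll, a lipase, at 1.16 (SE 0.14, limma adjusted p = 0.000173) and Retsat, a retinol saturase, at 1.90 (SE 0.26, limma adjusted p = 0.000283). Acot3 and Acot4, which encode peroxisomal acyl-CoA thioesterases, rose by 5.43 (SE 0.64, limma adjusted p = 0.000132) and 2.76 (SE 0.31, limma adjusted p = 9.90e-05). The gene that fell was Fgf21, a hormone made by the liver and named because it was the one that fell (-1.91 (SE 0.52, limma adjusted p = 0.0181)).

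RefSeq promoters (250 bases before to 50 after the start site, GRCm38.p6) were available for 30 of the 35 genes. Acaa2, Hsd17b4, Crat, Decr1 and Abcd2 had no entry. Both strands were searched for the element that PPARα binds with its partner, 2 copies of AGGTCA in the same direction 1 base apart with up to 2 mismatches, for the element of Esrra, TCAAGGTCA with up to 1 mismatch, and for the E-box CACGTG without mismatch. The first was found in 3 of 30 genes (10.0%) and in 4.40% of the 27025 genes with a promoter. The second was found in 3 of 30 genes (10.0%) and in 8.46% of all, and the E-box in 0 of 30 and in 8.09% of all. The shares moved with the mismatches allowed. With 1 mismatch the doubled element was in 0 of 30 genes and 0.644% of all, and with 3 in 26.7% and 27.3%. The element of Esrra without mismatch was in 0 of 30 genes and 0.47% of all, and with 2 mismatches in 66.7% and 57.0%. The E-box with 1 mismatch was in 60% of the 30 genes and 66.5% of all. A stretch can match the first and the second pattern, since both contain AGGTCA. The matches are descriptions of letters and not tested sites, and each is shown with up to 8 bases on both sides and the match in capitals.

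The matches to the doubled element lay in Echs1 (chr7:140116484-140116512, minus strand, ending 71 bases before the start site), Etfa (chr9:55512300-55512328, plus strand) and Slc25a20 (chr9:108662134-108662162, plus strand, just after the start site), all mitochondrial genes. The single element was matched in Ech1 (chr7:28825268-28825292, minus strand), Acaa1b (chr9:119157260-119157284, plus strand) and Acsl5 (chr19:55253119-55253143, minus strand). Echs1, Slc25a20, Ech1 and Acaa1b rose with fasting on chow, Etfa did not pass and Acsl5 fell.
Echs1, doubled: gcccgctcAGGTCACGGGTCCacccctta
Etfa, doubled: ttgggagtAGGGCAAAGGTAAgggtgtgc
Slc25a20, doubled: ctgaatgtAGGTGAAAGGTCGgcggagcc
Ech1, single: catgttggTCAAGGGCAccgaagcc
Acaa1b, single: gcgcaagtTCAAGGCCAatctgggc
Acsl5, single: caggaagtTCAAGGTGAagacttca

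The 250 bases before the start site of Acaa1b are shown because this gene had the largest change with fasting on chow and the largest difference between tissues among the 35 (chr9:119157094-119157343, minus strand, GRCm38.p6, RefSeq). They are 41.6% G or C with 2 CG steps, and the capitals mark the single element in the reverse direction.
Acaa1b upstream: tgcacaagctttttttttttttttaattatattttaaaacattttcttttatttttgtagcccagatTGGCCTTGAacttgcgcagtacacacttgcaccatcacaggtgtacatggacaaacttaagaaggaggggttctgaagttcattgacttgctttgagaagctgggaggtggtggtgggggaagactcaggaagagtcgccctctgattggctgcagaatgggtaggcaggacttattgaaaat

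Levels on chow differed between the tissues for 34 of the 35 genes, all higher in liver, while 41% of the 14415 genes tested were higher there and 44.2% were lower (limma over all 8 groups). Acaa1b was 450 ± 105 FPKM (SD, n = 4) in CC livers and 0.133 ± 0.080 (SD, n = 4) in CC hippocampi, a difference of 8.61 (SE 0.16) in log2(FPKM + 1). Slc27a2, at 636 ± 155 and 1.60 ± 0.30, and Acaa2, the mitochondrial thiolase, at 460 ± 38.1 and 4.90 ± 1.23, followed (SD, n = 4). Differences were smaller for Crat (0.93 (SE 0.17)), Acaa1a (2.12 (SE 0.12)) and Hadhb (2.31 (SE 0.12)). Abcd2 did not pass the threshold, with 1.37, 5.88, 6.28 and 9.78 FPKM in CC livers and 5.402, 5.199, 3.58 and 5.31 in CC hippocampi, and a difference of 0.04 (SE 0.41, limma adjusted p = 0.932). The liver values of Abcd2 enclosed those of hippocampus.

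In order of FPKM, CC livers had Slc27a2, Acaa2 and Acaa1b at the top and Crat, Acad10 and Abcd2 at the bottom. Slc27a2 did not overlap Acaa2, and Decr1 did not overlap Pex11a below it, while all other neighbours in the liver order overlapped. CC hippocampi had Etfb (25.9 ± 4.86), Hsd17b4 (17.4 ± 1.18) and Hadhb (17.1 ± 1.39; all SD, n = 4) at the top, and Etfb did not overlap Hsd17b4. Of the thiolase pair Acaa1a and Acaa1b, hippocampal RNA was almost entirely Acaa1a, at 12.3 ± 0.336 FPKM (SD, n = 4), whereas in CC livers Acaa1a was 58.1 ± 14.9, below Acaa1b. Ehhadh was 0.405 ± 0.143 FPKM in CC hippocampi and the other bifunctional enzyme gene, Hsd17b4, stood second (SD, n = 4). FPKM is scaled by length, so these levels can be set side by side within a tissue.

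**Figure D4:**
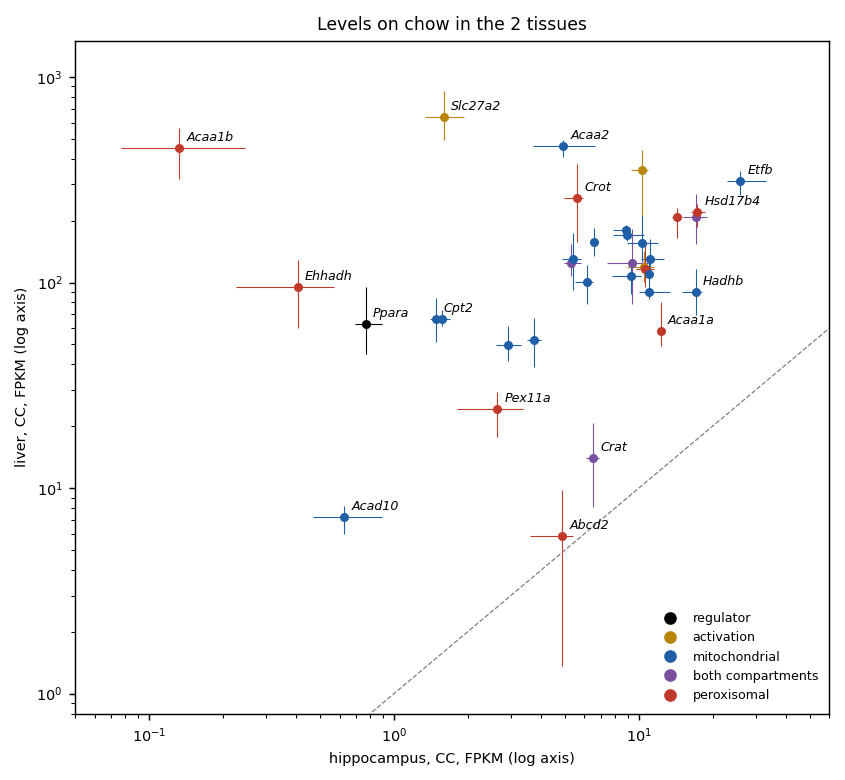
FPKM of the 35 genes on chow without fasting in hippocampus (horizontal, log axis) and liver (vertical, log axis). Points are means of 4 libraries, bars run from the lowest to the highest library and the dashed line marks equal levels; Abcd2 alone lies on the line, and Acaa1b is farthest from it.

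No oxidation gene was called in hippocampus in any of the 5 pairwise comparisons or in the interaction (limma, 31 genes tested). The background there was 0% of the 12857 genes in either direction, except CC-IF against CC, where 0.00778% rose. At an unadjusted p under 0.05 there were 2 of 31 genes for CC against HFD (3.56% of all genes tested), 2 for HFD-IF against HFD (7.6%) and 4 for CC-IF against CC (6.39%). There were 0 for CC-IF against HFD-IF (2.98%), 7 for CC-IF against HFD (8.8%) and 0 for the interaction (3.39%). The farthest difference from 0 in CC-IF against CC was -0.34, smaller than the changes simulated to test the fit. Data simulated on the CC-IF and CC hippocampi gave calls for 68% of genes changed by 0.5 (log2) and for 97% of those changed by 1. There 100 genes were changed by each size, and noise was drawn independently for each gene. The changed genes lay well above the filter, so levels like those of Cpt2 and Acads were not represented. Almost no gene was called in the measured hippocampi, which makes the adjusted threshold stricter there. These shares therefore do not give the power for the 31 genes.

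Values of the 3 genes with the smallest p show the size of these differences. Hadha measured 11.4, 11.2, 10.4 and 11.2 FPKM in the HFD hippocampi, 11.3, 10.2, 8.97 and 10.8 in the HFD-IF hippocampi, 11.2, 11.3, 10.8 and 10.6 in the CC hippocampi and 8.22, 9.800 and 9.26 in the CC-IF hippocampi. The CC-IF hippocampi lay below all CC and all HFD hippocampi. Acads measured 1.99, 1.66, 1.804 and 1.86 FPKM in the HFD hippocampi, 1.13, 1.75, 1.37 and 0.831 in the HFD-IF hippocampi, 1.41, 1.69, 1.702 and 1.496 in the CC hippocampi and 1.18, 1.22 and 1.53 in the CC-IF hippocampi. For Acads the HFD-IF hippocampi reached from below all others into the HFD range. Cpt2 measured 1.48, 1.47, 1.697 and 2.196 FPKM in the HFD hippocampi, 1.42, 1.14, 1.695 and 1.25 in the HFD-IF hippocampi, 1.51, 1.42, 1.56 and 1.45 in the CC hippocampi and 1.19, 1.14 and 1.23 in the CC-IF hippocampi. Its CC-IF hippocampi were below all CC and HFD hippocampi. Hadha differed by -0.26 (SE 0.08, limma adjusted p = 0.358) in CC-IF against HFD, Acads by -0.33 (SE 0.11, limma adjusted p = 0.576) in HFD-IF against HFD, and Cpt2 by -0.30 (SE 0.11, limma adjusted p = 0.426) in CC-IF against HFD.

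In CC-IF against HFD all 17 mitochondrial genes tested in hippocampus had a lower mean (median -0.20, beside 0.02 over all genes), with values from -0.32 to -0.10, and none passed. Every CC-IF hippocampus lay below every HFD hippocampus for 5 of 31 genes, beside 3.25% of all genes tested, and in CC-IF against CC for 5 of 31, beside 4.98%. Cpt1a measured 7.25, 5.85, 6.65 and 5.77 FPKM in the HFD hippocampi, 6.204, 6.08, 5.67 and 5.78 in the HFD-IF hippocampi, 4.86, 5.39, 5.82 and 5.41 in the CC hippocampi and 4.696, 5.49 and 5.798 in the CC-IF hippocampi. The HFD hippocampi of Cpt1a were mostly above the CC-IF ones but overlapped them. Acaa1a measured 13.7, 11.1, 13.96 and 11.3 FPKM in the HFD hippocampi, 11.6, 11.3, 12.6 and 9.27 in the HFD-IF hippocampi, 11.97, 12.4, 12.03 and 12.7 in the CC hippocampi and 11.2, 9.36 and 10.04 in the CC-IF hippocampi. All 3 CC-IF values of Acaa1a lay below the CC range, and they differed from CC by -0.25 (SE 0.10, limma adjusted p = 0.702). HFD-IF library 2 was the lowest of the HFD-IF hippocampi for 24 of 31 genes, a count that was not taken over all genes.

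Markers of adjoining tissue differed between hippocampi. Choroid plexus markers summed to 10.3 to 51.4 FPKM in HFD, 6.23 to 15.7 in HFD-IF, 7.70 to 56.4 in CC and 7.46 to 33.8 in CC-IF hippocampi. Meningeal markers summed to 18.9 to 33.9, 11.1 to 13.1, 10.5 to 32.6 and 9.79 to 23.0 in the same order. All 4 tested markers of each list had a lower mean in CC-IF than in HFD, with 3 of the meningeal markers at an unadjusted p under 0.05, beside 8.8% of all genes, and none past the adjusted threshold. Their part in the lower mitochondrial means was not tested.

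Whether the fasting change on chow differed between tissues was tested directly for the 31 genes above the filter in both. The change was larger in liver for 25 of 31, against 8.79% of the 9939 genes tested, and smaller for none, against 4.96% (limma, change in liver minus change in hippocampus). Slc27a2 and Echs1 lost this call with a pseudocount of 0.1 (limma adjusted p = 0.0511 and 0.0585), and Echs1 also with no filter (0.0636). The 25 genes were 15 of 17 mitochondrial, 4 of 7 peroxisomal, 4 of 4 genes of both compartments and 2 of 3 activation genes. The difference was 1.69 (SE 0.17, limma adjusted p = 4.71e-07) for Acaa1a, from 1.45 in liver and -0.25 in hippocampus. It was 1.46 (SE 0.26, limma adjusted p = 0.000366) for Crat, 1.16 (SE 0.16, limma adjusted p = 3.01e-05) for Slc25a20 and 0.94 (SE 0.13, limma adjusted p = 2.91e-05) for Hadha. Acsl5 and Crot did not pass, with -0.49 (SE 0.18, limma adjusted p = 0.0755) and -0.02 (SE 0.27, limma adjusted p = 0.971), and neither did Acaa2, Etfa, Abcd2 or Abcd3.

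For the diet switch 1 of 31 genes fell more in liver (Acaa1a, -0.68 (SE 0.16, limma adjusted p = 0.0365)), against 1.21% of the genes tested in that direction. For fasting on high-fat diet Acaa1a rose more in liver (0.74 (SE 0.18, limma adjusted p = 0.0389)) and Acsl5 fell more (-1.05 (SE 0.20, limma adjusted p = 0.00394)), against 0.473% and 1.16% of all genes tested, 1.63% in either direction. Without HFD-IF liver library 1 the difference was 0.79 for Acaa1a, which was then not called (limma adjusted p = 0.0992), and -1.18 for Acsl5, which was (limma adjusted p = 0.011). Leaving out HFD-IF liver library 0 instead gave differences of 0.69 for Acaa1a and -0.92 for Acsl5. Acsl5 itself measured 8.24, 10.2, 8.63 and 9.48 FPKM in the HFD hippocampi, 12.1, 10.9, 9.23 and 9.497 in the HFD-IF hippocampi, 11.2, 10.4, 8.93 and 11.6 in the CC hippocampi and 10.1, 10.6 and 9.29 in the CC-IF hippocampi. The 4 HFD-IF hippocampi of Acsl5 overlapped the HFD range at its upper end, in contrast to the livers, where both HFD-IF values lay below all HFD values. With median-ratio scaling the diet switch gave no call and fasting on high-fat diet gave 6. The share of all genes called with that scaling is not given here, so these counts are not results about the 31 genes alone.

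**Figure D5:**
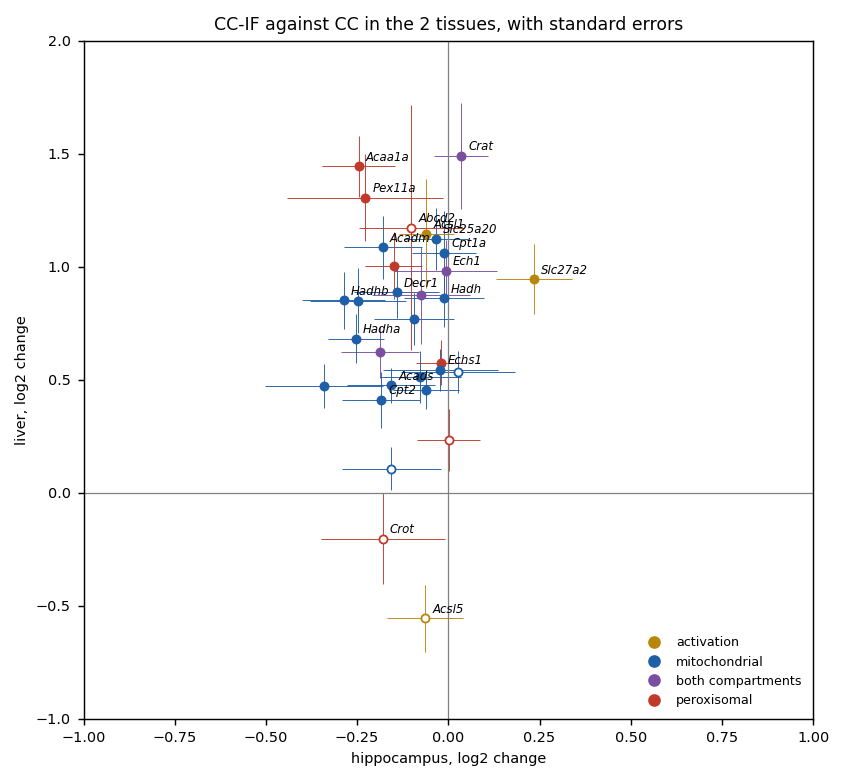
Log2 change of CC-IF against CC in hippocampus (horizontal axis) and liver (vertical axis) for the 31 genes tested in both tissues, with standard errors. Filled points are the 25 genes whose change differed between tissues at an adjusted p of 0.05; most points stand above 0 on the liver axis and within 0.35 of 0 on the hippocampal axis.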

How the data were processed

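Bulk polyadenylated RNA of 14 livers and 15 hippocampi was measured. The deposited table holds 1 FPKM value per gene and library, made by the authors. Per the submitters' processing notes, FastQC 0.11.9, Trimmomatic 0.39, TopHat2 2.1.1, Bowtie2 2.3.5.1 and the GRCm38 build were used; the program that computed FPKM is not given in the sources used here. Depth was estimated from the steps between low values, as the trial depth that made most of them whole reads (within 0.2). This gave 56.67% to 67.85% whole. Chance gives 40% at a depth fixed beforehand, and more at the best of many trial depths, so these shares do not show how exact the depths are. No count test was run. Genes under 300 nt held at least 95.39% of summed FPKM.

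Genes with a mean of at least 1 FPKM in a tissue were tested with limma 3.58.1 in R 4.3.3 on log2(FPKM + 1), with an intensity trend, all 4 regimens in 1 fit and Benjamini-Hochberg adjustment at 0.05; fold changes are on the FPKM + 1 scale and understate low genes. A fit over both tissues tested differences between them. Figures were drawn with matplotlib 3.10.9, and tables handled with pandas 2.3.3, numpy 2.4.6 and Python 3.11.15. The fit was tested on simulated data (54% of changes of 0.5 and 83% of changes of 1 recovered for CC-IF against CC livers, 11419 genes). Noise was drawn independently for each gene there too. In 40 pairs of libraries of 1 group at least 99.99% of values differed, and none was treated as a duplicate.

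The 35 genes and the other lists were chosen with earlier results of these data known. Values of every library were given for 8 genes fixed by name (Ppara, Cpt1a, Acsl1, Acaa1a, Acaa1b, Ehhadh, Pex11a and Abcd2), for those with the smallest p in each class for CC-IF against CC, the 2 with the smallest p for CC against HFD and for HFD-IF against HFD, those called against the common direction or in the interaction, and the 3 with the smallest p in hippocampus. Genes of other lists were named by smallest p. Crot, Etfa, Fgf21 and others outside this rule were named after their values were seen. Alternatives were other pseudocounts, filters and scaling, array weights, robust moderation, no trend, the compared groups alone and each library left out. Leaving HFD-IF liver library 1 out of the estimate of spread, and either HFD-IF liver out of the difference between tissues and of the pathway genes, was chosen after seeing the data.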

Additional observations from a re-analysis of the deposited data

Results flagged for a closer look

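Each group of 4 libraries was examined for a library far from the other 3, and chance alone picks about 1 in 20 such groups. Of 132 groups of the oxidation genes, 6 had one. In liver, Acaa1a was 80.42 FPKM in CC library 3, above the other CC livers, and 172.7 FPKM in CC-IF library 1, above the other CC-IF livers. Hadh was 216.3 FPKM in HFD library 1, below the other HFD livers. In hippocampus, Slc27a2 was 2.254 FPKM in HFD-IF library 3 and Echs1 was 13.43 FPKM in CC library 1, both above the rest of their group, and Abcd2 was 3.583 FPKM in CC library 2, below the rest.

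A tested difference between groups was found in 20 cases (limma, adjusted p under 0.05). The liver change of Echs1 with fasting differed between diets by 0.6911 on the log2 scale. The change of CC-IF from CC was larger in liver than in hippocampus for 16 of the genes followed singly, beside 8.79% of all genes tested. Many of these genes were followed because of a small p for the same comparison in liver. The count is therefore partly set by that choice and is not a result by itself. Among the mitochondrial genes the differences were 1.265 for Acadm, 1.159 for Slc25a20, 1.139 for Hadhb, 1.073 for Cpt1a, 1.029 for Decr1, 0.9353 for Hadha, 0.8722 for Hadh, 0.6314 for Acads, 0.5949 for Cpt2 and 0.5657 for Echs1. For peroxisomal and shared genes they were 1.691 for Acaa1a, 1.533 for Pex11a, 1.457 for Crat and 0.9893 for Ech1, and for activation genes 1.207 for Acsl1 and 0.7093 for Slc27a2. The diet switch changed Acaa1a more in liver (-0.6784). Fasting on high-fat diet differed between tissues for Acaa1a (0.7374) and Acsl5 (-1.049). Without HFD-IF liver library 1, Acsl5 was still called and Acaa1a was not (limma adjusted p = 0.0992), and the interaction of Echs1 was not called either.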

How the results depend on the processing

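Counts of called oxidation genes and the peroxisomal minus mitochondrial median were labelled the same under the planned settings in 122 cases and moved in 13. A count was the same within 1.5 times the reported count, and the median within the spread between replicates. Hippocampal comparisons had 0 reported calls, so they counted as the same whenever 0 were called again. No direction reversed. For CC against HFD in liver, 15 genes were called with array weights. For HFD-IF against HFD, 0 were called with array weights and 0 with the compared groups alone, and 2 with a minimum mean of 5 FPKM and 2 with median-ratio scaling. For the interaction in liver, 0 were called with array weights, median-ratio scaling, no filter or no intensity trend, and 2 with a minimum of 5 FPKM. For the change in liver minus hippocampus, CC against HFD gave 0 calls with median-ratio scaling and 2 with no filter, and HFD-IF against HFD gave 6 with median-ratio scaling. The cause was not tested. Neither these counts nor those with 1 library left out are set beside the share of all genes called in the same fit. They therefore do not tell a change in the oxidation genes from a change in the whole fit. Leaving out 1 library gave 0 to 11 calls for CC against HFD in liver, 0 to 4 for HFD-IF against HFD, 29 to 31 for CC-IF against CC, 0 to 3 for CC-IF against HFD-IF, 13 to 19 for CC-IF against HFD, 0 to 12 for the interaction, and 0 throughout in hippocampus. Leaving out either HFD-IF liver, a setting chosen after seeing the data, gave 1 to 6 for HFD-IF against HFD in liver minus hippocampus. The peroxisomal minus mitochondrial median for CC-IF against CC ranged from 0.2556 to 0.585. With 1 HFD-IF liver left, its variation was taken to be like that of the other groups. No paired analysis was possible because the table's columns carry an index of their own that does not match the replicate numbers of the labels.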
